A study of Mus musculus with 14 samples.

Results

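Mitochondria in heart muscle cells fuse and divide, and damaged ones are removed. Described here are 8 mouse genes that carry out these steps, namely the fusion genes Mfn1, Mfn2 and Opa1, the fission genes Dnm1l, Fis1 and Mff, and the mitophagy genes Pink1 and Fundc1. They were taken by symbol from a table of 23337 genes, and all 8 were found and tested among 11170 genes with enough counts. Messenger RNA was sequenced from cardiomyocytes sorted from hearts of 4-week-old Rosa-Cas9GFP mice, a strain named for Cas9 and GFP at the Rosa locus. All mice received an adeno-associated virus (AAV) on postnatal day 1. The KO group (n = 7 libraries) received AAV-Ryr2gRNA, whose name points to a Ryr2 guide RNA, and the Ctrl group (n = 7) received AAV-Cre. Ryr2 encodes the calcium release channel of the sarcoplasmic reticulum. The sources used here do not say if Cre was also in the KO virus, so the guide and the vector cannot be told apart, and both groups share the Rosa-Cas9GFP strain. The labels do not name an animal for each library, so p-values reflect only how far these samples spread, and that spread may be technical.

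Fusion joins the membranes of neighbouring mitochondria. The mitofusins Mfn1 and Mfn2, GTPases of the outer membrane, tether and fuse the outer membranes, and Opa1, a GTPase of the intermembrane space, fuses the inner membranes and holds the cristae in shape. In fission the cytosolic GTPase Dnm1l (DRP1) assembles on receptors such as Mff and Fis1 and constricts the organelle. In mitophagy the kinase Pink1 builds up on damaged mitochondria and phosphorylates ubiquitin there, which marks them for removal, while Fundc1 is an outer membrane receptor that binds LC3. Mfn2 also tethers mitochondria to the sarcoplasmic reticulum, the store from which Ryr2 releases calcium.

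Library totals lay between 5689335 and 13165662 counts. Ryr2 ranged from 602 to 763 CPM (counts scaled by library size, median 649) in Ctrl and from 225 to 371 CPM (median 324) in KO. The groups did not overlap, and the log2 fold change was -1.13 (SE 0.0977, edgeR adjusted p = 3.29e-07). In the fit across all genes 28.2% of tested genes differed between groups at an adjusted p under 0.05 (edgeR's quasi-likelihood test, Benjamini-Hochberg, BH, over 11170 genes), of which the lower ones in KO made up 13.7% and the higher ones 14.5% of tested genes. Ctrl replicates 4 and 5 and KO replicates 4 and 5, whose library indices run from 7 to 10, were also treated apart from the other 10 libraries. How far they differ from those is not given here, and results that depend on them are given with and without them. Of 8 cardiomyocyte markers 5 were lower in KO, Ryr2 among them, and none was higher. Their summed level ranged from 81320 to 96160 CPM in Ctrl and from 65480 to 90310 in KO, which is far above the sum for any other cell type listed. Summed macrophage markers ranged from 23.0 to 111 CPM in Ctrl and from 57.9 to 428 in KO (3 of 8 tested higher). Pericyte and smooth muscle markers summed to between 990 and 1289 CPM in Ctrl and between 1415 and 2253 in KO (3 of 8 higher, 1 lower). The higher ones were Acta2 (mean 696 CPM in Ctrl and 1211 in KO), Cspg4 and Tagln, and the lower one was Abcc9 (350 and 270). Rgs5, Pdgfrb, Kcnj8 and Myh11 did not pass. No fibroblast (7 tested) or endothelial marker (8 tested) passed. Of 6 erythroid markers Hba-a1, Hba-a2 and Hbb-b1 were at 0 in every library. The sum of the 6 ranged from 0.863 to 16.1 CPM in Ctrl and from 0.862 to 72.9 in KO. The 1 tested, Beta-s, did not pass (log2 fold change 1.28, edgeR adjusted p = 0.185). The part of other cell types in the values below was not tested, and in such bulk samples fewer cells of a type and less RNA per cell cannot be told apart.

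All 3 fusion genes were lower in KO, as was the fission GTPase Dnm1l, while no mitophagy gene passed the test in either direction. KO means were 76.3% of the Ctrl mean for Mfn1, 76.5% for Opa1, 83.8% for Mfn2 and 88.4% for Dnm1l. The other 4 genes had KO means between 88.3% (Mff) and 99.3% (Fundc1) of Ctrl. The 4 lower genes of 8 stand beside a background of 13.7% lower over all tested genes. That background rose with the level of a gene. It was 12% at a mean log2 CPM between 4 and 6, where Fundc1 lay, and 26.6% between 6 and 8 (Dnm1l, Fis1). It reached 42.2% between 8 and 10 (Mfn1, Opa1, Mff, Pink1) and 65.6% above 10 (Mfn2). The median log2 fold change over all tested genes was 0.01.

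**Figure D1:**
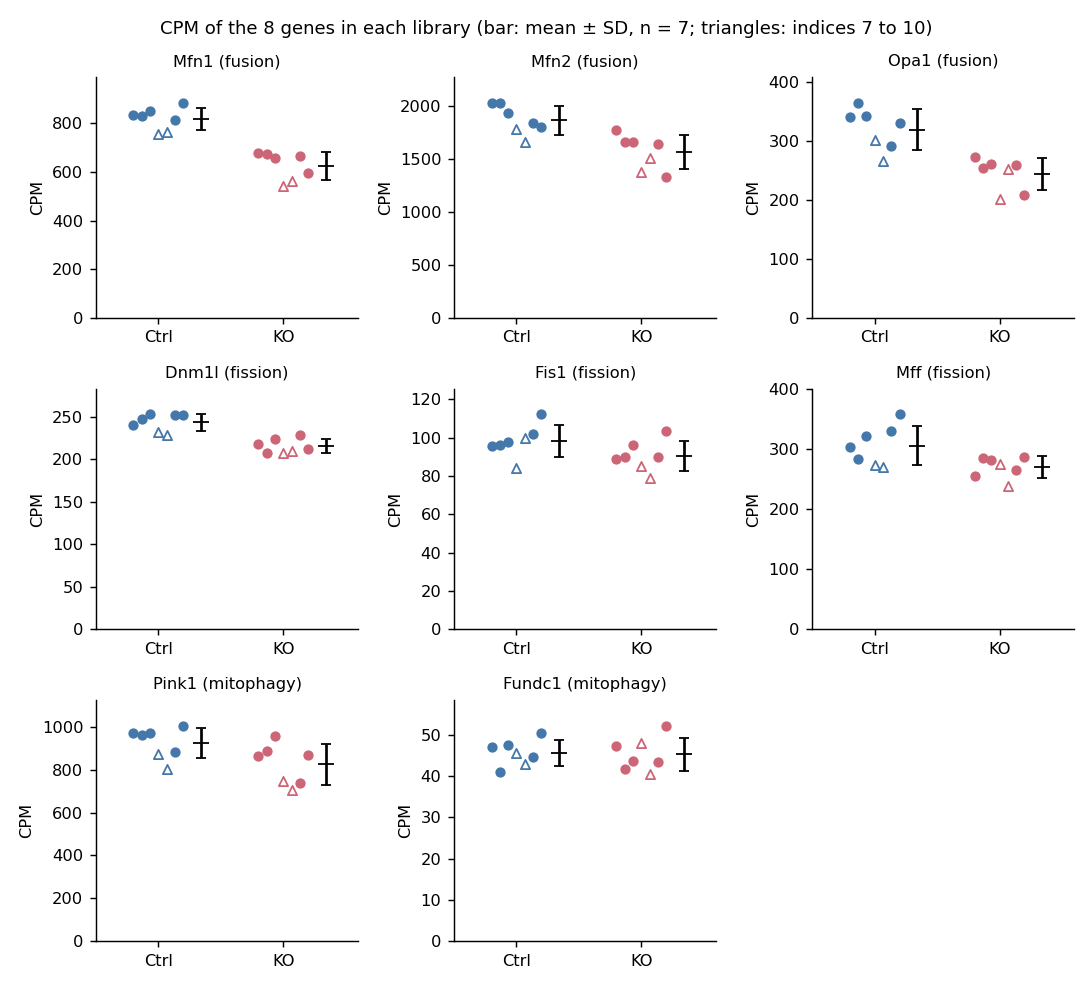
CPM of each of the 8 genes in each library (y axis, from 0) by group (x axis), with 1 point per library, triangles for library indices 7 to 10, and a bar for the mean ± SD (n = 7). The groups are separate for Mfn1 and Dnm1l, overlap by a single KO library for Mfn2 and Opa1, and lie over each other for Fundc1.

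Mfn1, the mitofusin with the stronger tethering activity, ranged from 758 to 885 CPM in Ctrl (median 829) and from 543 to 677 in KO (median 656). All 7 KO libraries lay below all Ctrl libraries, a separation in the lower direction that 4.71% of tested genes showed. The mean fell from 819 ± 45.2 to 625 ± 56.5 CPM (SD, n = 7 each), a log2 fold change of -0.39 (SE 0.0623, edgeR adjusted p = 0.000177). The lowest 2 KO values, 543 and 563 CPM, came from KO replicates 4 and 5, and the lowest 2 Ctrl values, 758 and 765 CPM, came from Ctrl replicates 4 and 5. The gene lies at chr3:32529482-32579225 on the plus strand (mm10), with 4531 exonic bases in the counted model.

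Mfn2, the mitofusin that also acts at contacts with the sarcoplasmic reticulum, ranged from 1660 to 2031 CPM in Ctrl (median 1837) and from 1335 to 1773 in KO (median 1640). The groups overlapped because KO replicate 1, at 1773 CPM, lay above the lowest Ctrl library, and the other 6 KO libraries lay below all Ctrl libraries. The mean fell from 1867 ± 137 to 1565 ± 161 CPM, a log2 fold change of -0.26 (SE 0.0709, edgeR adjusted p = 0.0124). Mfn2 lies at chr4:147873595-147904819 on the minus strand, with 4377 exonic bases.

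Opa1, the fusion GTPase of the inner membrane, ranged from 266 to 365 CPM in Ctrl (median 330) and from 202 to 273 in KO (median 254). The overlap was again a single KO library, replicate 1 at 273 CPM, which exceeded only Ctrl replicate 5 at 266 CPM. The mean fell from 319 ± 34.5 to 244 ± 27.8 CPM, a log2 fold change of -0.39 (SE 0.0828, edgeR adjusted p = 0.00202). Opa1 lies at chr16:29579334-29654602 on the plus strand, with 6002 exonic bases, and its relative spread in Ctrl was wider than that of Mfn1 (coefficient of variation 10.8% against 5.52%).

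Dnm1l, the GTPase that constricts mitochondria, had the smallest spread of the 8 genes, with a coefficient of variation of 4.09% in Ctrl and 3.81% in KO. It ranged from 229 to 253 CPM in Ctrl (median 247) and from 208 to 229 in KO (median 212). The groups touched without overlapping, since KO replicate 6 (228.8 CPM) lay just under Ctrl replicate 5 (228.9 CPM). The mean fell from 244 ± 9.97 to 215 ± 8.21 CPM, a log2 fold change of -0.18 (SE 0.0448, edgeR adjusted p = 0.00681). Dnm1l lies at chr16:16312233-16359030 on the minus strand, with 4058 exonic bases.

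The other fission genes of the set, Mff and Fis1, did not pass the test. Mff, the main receptor of Dnm1l on the outer membrane, ranged from 270 to 358 CPM in Ctrl (median 304) and from 239 to 287 in KO (median 276), and 3 KO libraries lay below all Ctrl libraries. Its means were 306 ± 32.8 and 270 ± 17.9 CPM (log2 fold change -0.18, SE 0.0687, edgeR adjusted p = 0.0621). That estimate matches Dnm1l in size with a larger error. Mff was called lower in 6 of 24 alternative settings, among them the other 10 libraries alone (edgeR adjusted p = 0.0381). It stayed uncalled with the same sign in 17, and its sign was reversed by scaling to respiratory chain genes (described below). Fis1, a tail-anchored outer membrane protein, ranged from 84.2 to 112 CPM in Ctrl (median 97.8) and from 78.8 to 104 in KO (median 89.6). Only KO replicate 5 lay below all Ctrl libraries, and the log2 fold change was -0.12 (SE 0.0680, edgeR adjusted p = 0.212). Mff lies at chr1:82724918-82752389 and Fis1 at chr5:136953275-136966234, both on the plus strand.

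Neither mitophagy gene was called lower or higher. Pink1, the kinase that marks damaged mitochondria, ranged from 805 to 1004 CPM in Ctrl (median 962) and from 705 to 957 in KO (median 867). All 7 KO libraries lay below the Ctrl median and 3 lay below all Ctrl libraries, and the log2 fold change was -0.17 (SE 0.0748, edgeR adjusted p = 0.112). Without KO replicate 3, its highest KO library, the adjusted p was 0.0492. With a term for library indices 7 to 10 it was 0.0274. Of 24 alternative settings, 20 left Pink1 uncalled with the same sign and 3 called it lower. The remaining setting, scaling to respiratory chain genes (described below), reversed its sign.

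Fundc1, the mitophagy receptor of the outer membrane, ranged from 40.9 to 50.4 CPM in Ctrl (median 45.5) and from 40.5 to 52.2 in KO (median 43.8). Its groups lay over each other, with 1 KO library below and 1 above all Ctrl libraries, and its log2 fold change of -0.01 (SE 0.0674, edgeR adjusted p = 0.937) was the closest to 0 of the 8. Pink1 lies at chr4:138313410-138326296 (minus strand) and Fundc1 at chrX:17556569-17572297 (minus strand). No exon of the 8 genes overlapped an exon of another gene of the table.

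Signs were the same for all 8 genes in the authors' deposited table, with log2 fold changes of -0.40 for Mfn1, -0.27 for Mfn2, -0.40 for Opa1 and -0.19 for Dnm1l. In the authors' deposited table Mff is also past the threshold (adjusted p = 0.0467), and Pink1 is not (adjusted p = 0.0965).

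The promoters of the 4 genes that were lower are shown because these genes fell together. RefSeq promoters on GRCm38.p6, the assembly also called mm10, were found for all 8 genes. Each sequence is the 250 bases before the listed start that lies nearest to the start of the counted gene, 5′ to 3′ on the gene's strand. The regions are chr3:32529232-32529481 (plus strand), chr4:147904910-147905159 (minus strand), chr16:29579084-29579333 (plus strand) and chr16:16359032-16359281 (minus strand). The start of Mfn2 used here lies 90 bases upstream of the counted gene. Capitals mark matches to the motifs named after the sequences.
Mfn1: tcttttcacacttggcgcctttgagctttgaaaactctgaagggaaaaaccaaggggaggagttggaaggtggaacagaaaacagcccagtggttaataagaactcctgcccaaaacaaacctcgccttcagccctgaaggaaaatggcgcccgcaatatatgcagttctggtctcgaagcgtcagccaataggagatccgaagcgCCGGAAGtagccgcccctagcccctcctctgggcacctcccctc
Mfn2: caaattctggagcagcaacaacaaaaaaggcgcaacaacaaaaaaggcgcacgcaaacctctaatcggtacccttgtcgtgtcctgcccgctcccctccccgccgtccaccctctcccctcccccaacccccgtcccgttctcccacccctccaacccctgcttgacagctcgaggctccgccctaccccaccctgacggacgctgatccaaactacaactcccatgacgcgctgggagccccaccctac
Opa1: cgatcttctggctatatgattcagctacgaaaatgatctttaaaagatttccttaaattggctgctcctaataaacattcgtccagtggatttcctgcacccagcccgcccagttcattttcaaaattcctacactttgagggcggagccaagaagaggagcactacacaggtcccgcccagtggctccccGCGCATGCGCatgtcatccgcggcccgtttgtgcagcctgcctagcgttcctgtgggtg
Dnm1l: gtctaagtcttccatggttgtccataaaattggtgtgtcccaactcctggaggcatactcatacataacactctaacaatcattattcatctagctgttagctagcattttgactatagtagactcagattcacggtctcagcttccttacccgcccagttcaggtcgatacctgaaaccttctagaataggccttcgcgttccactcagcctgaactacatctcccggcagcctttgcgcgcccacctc
Exact matches to 6 motifs were searched on both strands, with N for any base. They were the NRF1 motif CGCNTGCGC, the ERR half-site TNAAGGTCA, the ETS core CCGGAAG, the ATF4 composite motif TGATGNAA, the E-box CACGTG and the CLEAR motif TCANGTGA of TFEB. Among 32851 listed mouse promoters of the same length, 5.16%, 1.14%, 6.91%, 3.45%, 6.02% and 3.45% held them in that order. Mfn1 held an ETS core whose first base lay at -44 from the start, and Opa1 held the NRF1 motif on both strands, starting at -59 and -58 and overlapping. Mfn2 and Dnm1l held none of the 6 in this window. These 2 genes have 3 and 2 listed starts, and the windows of their other listed starts held none of the 6 either. The bases just after the start used here were not found in their reference transcripts, unlike for the other genes. Of the genes not called, Fis1 held an ETS core at -18, Pink1 an NRF1 motif at -9 and Mff the CLEAR motif at 2 places, and Fundc1, whose listed start lies 290 bases inside the counted gene, held none. No motif was thus shared by the 4 lower genes in these windows. The 4 promoters differed in base composition, with a GC content of 47.6% for Dnm1l, 52.0% for Opa1, 53.6% for Mfn1 and 62.0% for Mfn2 beside a median of 52.4% over all promoters.

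Per length, the mitofusin Mfn2 and the kinase Pink1 had the highest levels. In Ctrl, Mfn2 was highest at 427 ± 31.2 CPM per kb of exon (SD, n = 7), in the 98.4th percentile of tested genes, followed by Pink1 at 391 ± 30.3 CPM per kb. Mfn1 (181 CPM per kb) and Mff (164) came next, then Fis1 (89.1), Dnm1l (60.0) and Opa1 (53.2). Fundc1 was last at 23.4 CPM per kb, in the 75.4th percentile. Neighbours in this order whose Ctrl ranges overlapped were Mfn2 and Pink1, Mfn1 and Mff, and Dnm1l and Opa1, and the other neighbours were separate. In KO the mean of Mfn1 (138 CPM per kb) fell below that of Mff (145), with overlapping ranges, and Opa1 (40.7) was separate from Dnm1l (53.1).

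**Figure D2:**
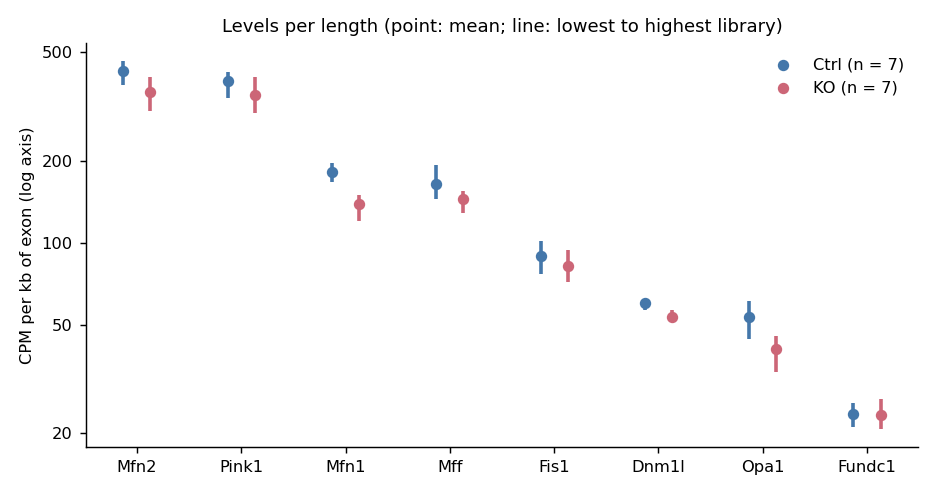
Level of each gene in CPM per kb of exon (log axis) in Ctrl and KO; points are means and lines run from the lowest to the highest of 7 libraries. Mfn2 and Pink1 are highest, at 427 and 391 CPM per kb in Ctrl, and Fundc1 is lowest at 23.4 CPM per kb.

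Because the direction of a small change depends on the scaling of the libraries, the 8 genes were also read relative to 73 tested nuclear genes of the respiratory chain and ATP synthase, which supply most of the ATP of a heart cell. Of these 73 genes 61 were lower in KO (83.6%, beside 13.7% of all tested genes) and none was higher (beside 14.5%). Most lay at a mean log2 CPM above 8, where 42.2% (8 to 10) and 65.6% (above 10) of all tested genes were lower. The median log2 fold change of the 73 genes was -0.43. With the libraries scaled to their summed counts, no member was lower and 5 were higher, namely Fundc1 (log2 0.43, SE 0.0882, edgeR adjusted p = 0.000577), Fis1 (0.32, SE 0.0589, adjusted p = 0.00026), Pink1 (0.27, SE 0.0515, adjusted p = 0.000362), Dnm1l (0.27, SE 0.0769, adjusted p = 0.00636) and Mff (0.26, SE 0.0670, adjusted p = 0.00273). On this scale Mfn1 (0.05, SE 0.0633, edgeR adjusted p = 0.479), Opa1 (0.06, SE 0.0981, adjusted p = 0.59) and Mfn2 (0.19, adjusted p = 0.0662) were not called. The estimates of Mfn1 and Opa1 lay within 1 SE of the summed change of the respiratory chain genes. This scaling moved the median of all tested genes from 0.01 to 0.46, after which the higher genes made up 67.4% and the lower genes 1.31% of all tested genes, so 5 of 8 higher is below the share of all genes. All 8 estimates changed sign between the scalings. The shift of all genes alone would do this, since the first estimates of the 8 genes lay between -0.39 (Mfn1) and -0.01 (Fundc1). The change of sign is thus not a separate result about them.

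**Figure D3:**
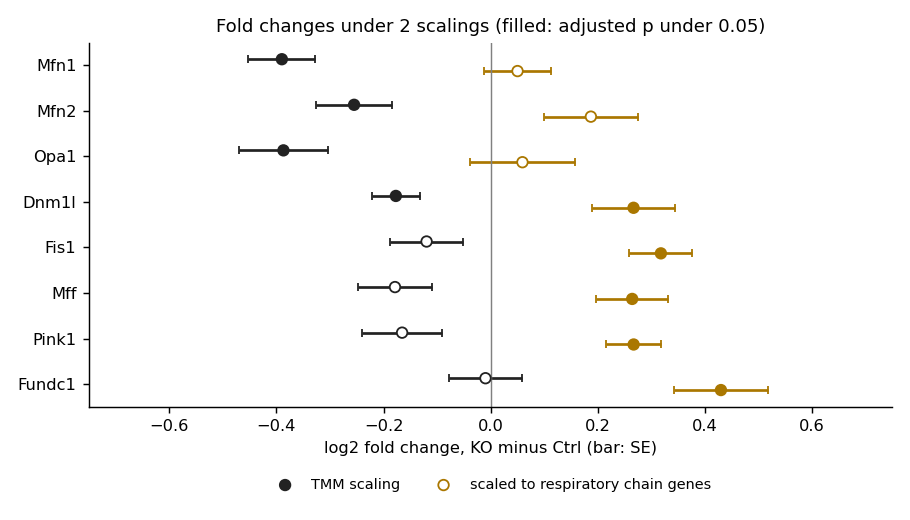
Log2 fold change, KO minus Ctrl (x axis), of each gene (y axis) with TMM scaling (dark) and with libraries scaled to respiratory chain genes (ochre); bars are SE and filled points have an adjusted p under 0.05. All 8 points lie left of 0 in the first scaling and right of 0 in the second.

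Ratios between genes of the same library do not depend on that scaling. Of 2 ratios between genes of related role, Mfn2 to Mfn1 went from 2.36 ± 0.151 in Ctrl to 2.59 ± 0.147 in KO per length (SD, n = 7 each). The log2 difference was 0.13 (two-sided exact permutation test over 3432 assignments, p = 0.0175, BH over 3 ratios 0.0525), which missed the threshold after adjustment. Mff to Fis1 was 1.84 ± 0.127 in Ctrl and 1.77 ± 0.0964 in KO (exact permutation p = 0.293, BH 0.440), with a log2 difference of -0.11 in the other 10 libraries (unadjusted exact p = 0.0476) and of 0.08 in library indices 7 to 10.

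All 28 pairs of the 8 genes were then compared by the same exact permutation test, a choice made after the values above were seen. Of the 28 pairs 7 passed after BH adjustment over 36 pairs, and Mfn1 was in 5 of them. The pairs are built from only 8 values per library, so they are not independent. The 5 pairs share Mfn1, whose log2 fold change was the lowest of the 8, and are not 5 separate results. Mfn1 was lower in KO relative to each fission gene, by a log2 ratio of -0.27 to Fis1 (BH p = 0.0105), -0.22 to Dnm1l (0.0105) and -0.22 to Mff (0.0360, two-sided exact permutation tests). It was also lower relative to Fundc1 (-0.38, exact permutation BH p = 0.0105) and Pink1 (-0.22, 0.0252). In counts, Mfn1 had 8.37 times the CPM of Fis1 in Ctrl and 6.95 times in KO, and the 2 groups of ratios did not overlap. Opa1 was lower relative to Fundc1 (-0.38, exact permutation BH p = 0.0105), and the Mfn2 to Opa1 ratio was higher (0.13, BH p = 0.0315).

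Pairs of Mfn2 or Opa1 with a fission gene did not pass. Of the 9 pairs of a fusion with a fission gene 3 passed, all with Mfn1, and the fusion gene was lower in each of the 9. Opa1 relative to Dnm1l gave -0.21 (exact permutation BH p = 0.0699), and Mfn2 relative to Dnm1l gave -0.08 (0.381). No pair within the fission genes, within the mitophagy genes or between the 2 sets passed, 10 pairs in all. Mfn1 and Opa1 differed by -0.01 (exact permutation BH p = 0.976). The 7 pairs kept their direction in the other 10 libraries and in library indices 7 to 10. Both are parts of the 14 libraries in which the pairs were picked, so this is not a separate check. None of the 28 passed in the other 10 libraries, where the smallest p that 5 against 5 allows is 0.00794, and 4 passed without Ctrl replicate 3 or Ctrl replicate 4.

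Within the groups, the fusion genes varied together across libraries. After each group mean was subtracted, log2 CPM of Mfn2 and Opa1 gave a Pearson r of 0.91 over 14 libraries, Mfn1 and Mfn2 0.74, and Mfn1 and Opa1 0.71. Fis1 and Mff gave 0.74, whereas Mfn2 with Fis1 gave -0.13 and Opa1 with Fis1 -0.09. Mfn1 also varied with Dnm1l (0.67), Pink1 (0.67) and Fis1 (0.47), and Opa1 with Dnm1l (0.56). Shared variation was thus not particular to pairs of fusion genes. The points share library, depth and the split of indices 7 to 10, so these values are a description. Among 8476 genes compared in this way, the closest to Mfn2 was Cpeb3 (0.95), then Ogdh, a subunit of the oxoglutarate dehydrogenase, and Slc25a13, a mitochondrial aspartate and glutamate carrier. Opa1 was closest to Fyco1 (0.945), then Cpeb3 and Kdm5a. Mfn1 was closest to Usp28 (0.91), Aifm1 and Sord. Among the fission genes, Fis1 was closest to Dnajc15 (0.96), Psma2 and the complex I subunit Ndufv2, Mff to Timm22 (0.93), Pmvk and Nt5m, and Dnm1l to Ccng1 (0.91), Usp10 and Trp53inp2. Pink1 was closest to Uqcc (0.94), Asb2 and Ech1. Fundc1 was closest to Htra2 (0.86), Med19 and Ptdss2.

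Of the genes listed as regulators of fusion, 9 of 16 tested were lower in mRNA (56.2%) and 1 was higher (6.25%). Beside them stand 13.7% and 14.5% of all tested genes. The median log2 fold change was -0.22 beside 0.01 for all tested genes. Of the 16 genes 11 had a mean log2 CPM between 6 and 8, where 7 of them (63.6%) and 26.6% of all tested genes were lower. Mtch2, an outer membrane protein that promotes fusion, fell from 262 ± 15.99 to 201 ± 13.7 CPM (log2 -0.38, edgeR adjusted p = 7.15e-05). Stoml2, a scaffold of the inner membrane (-0.35), Opa3 (-0.33) and Spg7, a subunit of the inner membrane m-AAA protease (-0.36), were lower as well. Fam73a, which encodes mitoguardin 1, was the gene called higher (0.36, edgeR adjusted p = 0.0136). Oma1 and Yme1l1, the 2 proteases that cleave the Opa1 protein, did not pass (-0.14, adjusted p = 0.221, and 0.11, adjusted p = 0.279).

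Of 14 tested regulators and adaptors of fission 8 were lower (57.1%, beside 13.7% of all tested genes) and 1 higher (7.14%, beside 14.5%), with a median of -0.22. By level, 3 of 5 were lower at a mean log2 CPM between 4 and 6 (12% of all tested genes), 2 of 4 between 6 and 8 (26.6%) and 3 of 4 between 8 and 10 (42.2%). Mtfp1, an inner membrane protein that promotes fission, fell from 191 ± 22.01 to 123 ± 19.9 CPM (log2 -0.64, edgeR adjusted p = 9.93e-05), more than any of the 8 genes. Lower too were Ppp3ca, the catalytic subunit of calcineurin, which dephosphorylates Dnm1l (-0.31, edgeR adjusted p = 0.00161), and Prkaca, the catalytic subunit of protein kinase A, which phosphorylates it (-0.39, edgeR adjusted p = 0.00251). Mtfr1 was lower by -0.25 on the log2 scale. Spire1, an actin nucleator, was called higher at a low level (1.61 ± 0.977 to 3.14 ± 1.005 CPM, log2 0.97, edgeR adjusted p = 0.0272), a call lost without any of 5 single libraries (Ctrl replicates 1, 2, 6 and 7 and KO replicate 5). The Dnm1l receptors Smcr7 (MiD49) and Smcr7l (MiD51) gave -0.30 (adjusted p = 0.0185) and -0.06 (adjusted p = 0.519).

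The mitophagy receptors and adaptors did not stand above the background as a list. Of the 26 tested 4 were lower (15.4%, near the 13.7% of all tested genes) and 2 higher (7.69%, below the 14.5%), and the median of 0.01 was that of all genes. Sqstm1 (p62), an autophagy adaptor that binds ubiquitin and LC3, rose from 457 ± 24.8 to 862 ± 117 CPM (log2 0.91, edgeR adjusted p = 4.42e-07), the largest change in the list. Gabarapl1, an LC3 family protein, was also higher (0.33). The 4 lower genes were Gbas, which encodes Nipsnap2 (-0.50), Optn, a mitophagy adaptor that binds ubiquitin (-0.36), Fundc2 (-0.26) and Pptc7, a mitochondrial phosphatase (-0.25). The receptors Bnip3 (0.30, edgeR adjusted p = 0.101) and Bnip3l (0.10, adjusted p = 0.322) and the LC3 gene Map1lc3b (-0.02, adjusted p = 0.86) did not pass.

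Genes of cristae and of transport were lower where they were called, apart from Kif5b. Of 12 tested genes of the MICOS complex and its partners, which hold the cristae junctions, 7 were lower (58.3%, beside 13.7% of all tested genes) and none higher (beside 14.5%), with a median of -0.25. Of the 4 at a mean log2 CPM between 6 and 8 there were 2 lower ones (26.6% of all tested genes), and all 3 between 8 and 10 were lower (42.2%). Immt (Mic60), its central subunit, fell from 1186 ± 78.3 to 906 ± 70.2 CPM (log2 -0.39, edgeR adjusted p = 0.000147). Apool (-0.49), Apoo (-0.34) and Chchd3 (-0.30), further subunits, were lower too. With any of 6 single libraries left out (Ctrl replicates 1, 3 and 7, KO replicates 1, 4 and 5), 4 of the 12 were called lower rather than 7, and the count was also 4 in the other 10 libraries. Of 9 tested transport genes 3 were lower (33.3%, beside 13.7% of all tested genes) and 1 higher (11.1%, beside 14.5%). By level, 2 of 4 were lower at a mean log2 CPM between 6 and 8 (26.6% of all tested genes). Between 8 and 10 it was 1 of 3, below the 42.2% of all tested genes. The motor adaptor Trak1 (-0.36) and the Miro GTPases Rhot2 (-0.35) and Rhot1 (-0.26) were lower. Kif5b, a kinesin heavy chain that carries mitochondria, was higher (0.18, edgeR adjusted p = 0.0236). The number of transport genes called higher was 3 without KO replicate 1 and 2 without Ctrl replicate 4, Ctrl replicate 5 or KO replicate 2. In the other 10 libraries no gene of the fusion, fission or transport lists was called higher. Over the 5 lists together 31 of 77 tested genes were lower and 5 higher. Most of them lay at levels where more genes were lower, with 16 of 37 lower (43.2%) at a mean log2 CPM between 6 and 8 and 10 of 16 (62.5%) between 8 and 10, beside 26.6% and 42.2% of all tested genes. With the libraries scaled to the respiratory chain genes, 54 of the 77 were higher and 1 lower, shares close to the 67.4% and 1.31% of all tested genes on that scale, so nothing particular to these lists is read from it.

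**Figure D4:**
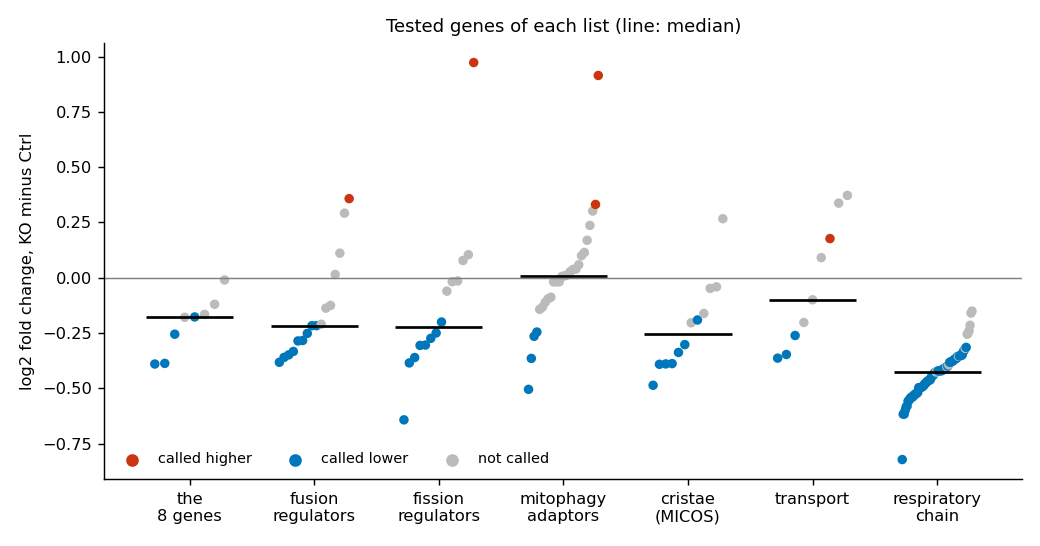
Log2 fold change, KO minus Ctrl (y axis, TMM scaling), of each tested gene of the 8 genes, of the 5 related lists and of the respiratory chain list; blue is called lower, red higher, grey neither, and lines are medians. The medians run from 0.01 for the mitophagy adaptors to -0.43 for the respiratory chain; scaled to respiratory chain genes the 8 members turn positive.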

How the data were processed

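Polyadenylated RNA of sorted cardiomyocytes was sequenced in 7 KO and 7 Ctrl libraries (SMART-Seq v4 and Nextera XT, per the labels' protocols). The deposited table gives each gene's read counts as whole numbers without normalization, with exon positions and lengths. The submitters' processing notes name STAR, featureCounts, DESeq, DESeq2 and mm10. Versions and strand setting: not given in the sources used here. A second deposited table holds log2 fold changes and p-values that the authors computed, and these were used only where named. Without molecular identifiers the counts are of reads, not molecules.

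Counts were tested in edgeR 4.0.16 under R 4.3.3 by its quasi-likelihood F test, two-sided, with the filterByExpr filter, TMM scaling and no covariates. BH adjustment ran over 11170 genes, with calls made at an adjusted p under 0.05. CPM used TMM-scaled library totals, and log2 CPM a prior count of 2. Log2 fold changes are KO minus Ctrl, and SE is the size of the log2 fold change over the root of F. Genes were compared with each other in level only after division by exonic length, apart from the 28 pairs, whose ratios are of undivided CPM. Ratios were tested by two-sided exact permutation tests over all 3432 assignments of the libraries, whose smallest p is 0.000583. Alternatives were edgeR's RLE size factors, library totals without TMM, scaling to respiratory chain genes, DESeq2 1.42.0, limma voom (limma 3.58.1), no filter, a replicate block, library indices 7 to 10 as a term, alone or left out, and each library left out. The edgeR, DESeq2 and voom fits were tested on simulated data. A further gene of the set, and the tests that need it, are not reported here, and they stayed in the BH adjustment, which ran over 3 ratios (2 reported) and 36 pairs (28 reported).

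The 8 genes and the lists were chosen with earlier results of these data known. Named were Ryr2, the 8 genes, up to 4 genes of each list with the smallest p, any that a count of 5 or fewer called for, and the 3 genes most like each member among genes whose mean log2 CPM was 3 or more. Oma1, Yme1l1, Smcr7, Smcr7l, Bnip3, Bnip3l and Map1lc3b were named in addition, for their roles, after their values were seen. No sample column was left unmapped (0 columns). Replicates differed by more than sampling noise (chi-square over degrees of freedom from 4.72 to 29.7), and the biological coefficient of variation was 16.2%.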

Additional observations from a re-analysis of the deposited data

How the results depend on the processing

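The 8 genes depend most on the scaling of the libraries. Against 4 members lower and 0 higher, library totals without TMM gave 2 lower, Mfn1 and Opa1. With totals Mfn2 (edgeR adjusted p = 0.103) and Dnm1l (0.419) were not called. The log2 fold changes of Fis1 (0.012, edgeR adjusted p = 0.894) and Fundc1 (0.12, adjusted p = 0.169) turned positive without a call. Scaling to respiratory chain genes gave 0 lower and 5 higher. In the latter scaling the log2 fold changes were 0.050 for Mfn1, 0.19 for Mfn2, 0.059 for Opa1, 0.27 for Dnm1l, 0.32 for Fis1, 0.26 for Mff, 0.27 for Pink1 and 0.43 for Fundc1. Over all genes, 1621 were higher and 1528 lower with TMM, 3064 and 852 with totals, 7531 and 146 with respiratory chain scaling, and 689 and 777 in library indices 7 to 10 alone. The share of calls that were higher was 51.5%, 78.2%, 98.1% and 47.0%, and library totals put the median of all genes at 0.15. For the 5 lists, 5 higher and 31 lower became 19 and 15 with totals, 54 and 1 with respiratory chain scaling, and 1 and 20 in indices 7 to 10, while 3 were higher in the other 10 libraries.

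In library indices 7 to 10 alone (2 against 2) 1 member was lower, Mfn1, and Mfn2 (-0.29, edgeR adjusted p = 0.0564), Opa1 (-0.36, 0.0898) and Dnm1l (-0.18, 0.238) were not called. Leaving out each library in turn gave 4 to 5 lower members, and Fundc1 between -0.049 and 0.016, above 0 without Ctrl replicate 7 or KO replicate 2, 3 or 5. Mff passed with DESeq2 (adjusted p = 0.0467), with an index term (0.0258), in the other 10 libraries (0.0381) and without Ctrl replicate 4 (0.0382) or 5 (0.0346). Size factors by RLE, limma voom and no filter changed no member's call.

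Mfn2 to Mfn1 was 0.11 in the other 10 libraries (unadjusted exact permutation p = 0.127) and 0.21 in indices 7 to 10 (0.333, the smallest that 2 against 2 allows), and 0.11 to 0.16 with each library left out. Mff to Fis1 was -0.11 in the other 10 libraries and 0.080 in indices 7 to 10, and -0.087 (without Ctrl replicate 5, unadjusted exact permutation p = 0.0490) to -0.035 with each library left out. The number of the 28 pairs that passed was 0 in the other 10 libraries, 0 in indices 7 to 10, and 4 to 9 with each library left out.

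Samples of the 2 groups with the same replicate number correlated between 0.0614 and 0.533 in their deviations from the group means, and 2 of 7 KO libraries correlated best with their own number, so the numbers were not taken as pairs. With the replicate number as a block 6 members were lower, Mff (adjusted p = 0.0261) and Pink1 (0.0114) in addition, and 9 genes of the 5 lists were higher. With the replicate block the Mfn2 to Mfn1 difference of 0.13 had an exact sign-flip p of 0.0156, the smallest that 7 pairs allow, and 0 of the 28 gene pairs passed (9 tied at that p, BH 0.0562). Depth was lowest for Fundc1, with 267 to 594 counts per library.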
